A study of Mus musculus with 16 samples.

Results

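The expression of 8 genes whose proteins are followed in neurodegeneration was described in whole brain RNA of *Tecpr2* knock-in mice. The genes were listed by name: *App*, *Aplp1*, *Aplp2*, *Bace1*, *Mapt*, *Sncb*, *Prnp* and *Grn*. They were 8 of the 55404 genes in the table, and all 8 passed the filter on low values that left 23244 genes to test. The samples were whole brains of 8 mice homozygous for the *Tecpr2* L1152fs knock-in (ki/ki) and of 8 wt/wt mice, all 5 months of age and untreated. The paper describes the knock-in as a CRISPR/Cas9-made frameshift in an exon that encodes part of the TECPR repeats of TECPR2, a protein of membrane trafficking and autophagy whose loss in people causes a sensory and autonomic neuropathy, and the sequenced mice as males. The allele is present in every cell, and RNA of the whole brain averages all regions, so that a change limited to a small region would be diluted.

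In dystrophic axons, cargo that is normally carried along the axon piles up in swellings. The amyloid precursor protein App is such a cargo and is a common histological marker of damaged axons. App and its relatives Aplp1 and Aplp2 are single-pass membrane proteins with a large outer part and a short inner tail, and are cut by proteases. When the protease Bace1 cuts App first and gamma-secretase follows, amyloid beta is released. Tau, the product of *Mapt*, binds axonal microtubules, and beta-synuclein, the product of *Sncb*, sits at presynaptic terminals. The prion protein, encoded by *Prnp*, is anchored to the outer face of the neuronal membrane. Progranulin, encoded by *Grn*, is secreted, is taken up into lysosomes and is made by microglia and by neurons. All of these proteins are controlled in part by cleavage, transport and degradation, which RNA does not report.

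None of the 8 genes passed the test between the genotypes. The fitted differences lay between a decrease of 3.21% (*Bace1*) and an increase of 1.67% (*Sncb*), 5 genes were higher and 3 lower in ki/ki, and values of the genotypes overlapped for every gene. Counted with limma and Benjamini-Hochberg adjustment over all tested genes, 0 of 8 had an adjusted p under 0.1, against 0.133% of all tested genes (31 of 23244, with 0.0946% higher and 0.0387% lower in ki/ki). At an unadjusted p under 0.01 there were 0 of 8, against 1.56% of all tested genes, and 0 of 8 had an unadjusted p under 0.05, against 6.08% of all tested genes. The values of the genotypes did not overlap in 0.086% of tested genes and in 0 of these 8. The median log2 fold change of the 8 was 0.0027, beside -0.00098 over all tested genes. The median absolute log2 fold change was 0.0071 for the 8 genes and 0.024 for the 6896 tested genes with a mean value of at least 300, a limit chosen after the data had been seen. The sets were not matched by level, since means of the 8 in ki/ki ran from 420.5 (*Grn*) to 13690.8 (*App*). The part of counting noise in this difference was not tested.

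The values are the authors' normalized values per gene, on a linear scale and in whole numbers, of a kind of normalization that is not given in the sources used here. They summed to between 11964284 and 12252324 per mouse. The reads on genes estimated to lie behind them ranged from 9.23 to 15.39 megareads per mouse. *Tecpr2*, the targeted gene, lay between 274 and 320 in ki/ki and between 928 and 1002 in wt/wt (log2 fold change -1.68), so all 16 libraries matched their labels. Of 8 astrocyte markers, 7 were higher and 1 lower in ki/ki, and 3 were called higher at an adjusted p under 0.1. Their summed value was 64561 to 66937 in ki/ki and 60925 to 64330 in wt/wt, most of it from *Slc1a2*, with means of 45610.4 and 43648.4. Of 10 microglia markers, 9 were higher and 1 lower, and 4 were called higher. Their summed value was 2919 to 3071 in ki/ki and 2518 to 2808 in wt/wt. The sum of 8 neuronal markers, among them the defining marker *Rbfox3*, was 47930 to 50864 in ki/ki and 48077 to 52403 in wt/wt, and no marker of any list was at 0 in all mice. In bulk tissue, fewer cells of a type and less RNA per cell cannot be told apart.

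The members of the App family end in closely related tails that carry an asparagine-proline-any residue-tyrosine motif, bound by adaptor proteins that direct endocytosis and sorting. The last 90 coding bases before the stop codon are shown because the tail is the part the family shares most clearly, and because reads from related genes could be assigned to the wrong gene. The bases are from the GENCODE transcripts of GRCm38, an earlier build than the GRCm39 used for alignment, written 5′ to 3′ on the coding strand, and the capitals mark the 12 bases that encode the motif.
App, chr16:84955334-84955423, minus strand: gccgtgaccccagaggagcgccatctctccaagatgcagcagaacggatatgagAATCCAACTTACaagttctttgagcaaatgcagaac
Aplp1, chr7:30435296-30435385, minus strand: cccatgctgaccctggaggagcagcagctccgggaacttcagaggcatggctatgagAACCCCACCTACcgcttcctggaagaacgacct
Aplp2, chr9:31150874-31150963, minus strand: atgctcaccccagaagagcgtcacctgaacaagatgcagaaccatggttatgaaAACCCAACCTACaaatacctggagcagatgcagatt
Each of the 3 stretches lies in a single coding exon. Aligned without gaps on the motif, *App* and *Aplp2* were identical at 63 of 87 bases (72.4%), *Aplp1* and *Aplp2* at 55 (63.2%) and *App* and *Aplp1* at 51 (58.6%). Within the capitals, *Aplp1* and *Aplp2* shared 11 of 12 bases, *App* and *Aplp2* 10, and *App* and *Aplp1* 9. Despite this likeness, no stretch of 31 bases was shared between transcripts of any of the 8 genes, so that a read of that length without mismatches could be told apart between relatives. Stretches of 31 bases found in transcripts of some other gene made up 7.74% of *Prnp*, 1.59% of *Grn*, 1.05% of *App* and 0.173% of *Bace1*, and none of the other members had any.

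*App* (ENSMUSG00000022892, GRCm38 chr16:84949685-85173766, minus strand), the precursor of amyloid beta, was the most abundant of the 8, with the 59th highest mean value among all genes. Its normalized values in ki/ki were 13370 at the lowest, 13752 at the median and 14071 at the highest, and in wt/wt 13449, 13701.5 and 14291. The genotypes overlapped over most of their range: 2 ki/ki mice lay below every wt/wt mouse and 2 wt/wt mice lay above every ki/ki mouse. The means were 13690.8 ± 226.5 (SD, n = 8) and 13763 ± 308.6 (SD, n = 8). The difference was -0.515% (95% interval -2.30 to 1.30%; limma with Benjamini-Hochberg adjustment, adjusted p = 0.972; exact two-sided permutation p = 0.606).

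*Aplp1* (ENSMUSG00000006651, chr7:30434982-30445535, minus strand), which is made mainly by neurons, had values of 7353, 7513.5 and 8097 (lowest, median, highest) in ki/ki and of 7320, 7568 and 8041 in wt/wt. The mean was 7630.2 ± 298.9 in ki/ki and 7661.5 ± 274.9 in wt/wt (SD, n = 8 each), a difference of -0.418% (95% interval -3.79 to 3.08%; limma, adjusted p = 0.986). Its spread between mice, a coefficient of variation of 3.92% in ki/ki and 3.59% in wt/wt, was above the 1.17% and 1.12% that read counting alone would give at the estimated depth. *Aplp2* (ENSMUSG00000031996, chr9:31149557-31211815, minus strand), the more widely expressed relative, had values of 5554, 5660.5 and 6044 in ki/ki and 5661, 5736.5 and 5882 in wt/wt. The ki/ki mice lay to either side of the wt/wt mice, 3 above all of them and 4 below all of them, and no mouse of either genotype had a value between 5755 and 5865. The mean was 5775.4 ± 204.2 in ki/ki and 5766.4 ± 93.7 in wt/wt (SD, n = 8 each), a difference of 0.113% (95% interval -2.27 to 2.56%; limma, adjusted p = 0.995). The larger spread in ki/ki was not tested.

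The relation of the relatives to *App* was also compared as a ratio within each library, which does not depend on how libraries were scaled. The ratio of *Aplp1* to *App* was 0.535 to 0.587 in ki/ki and 0.544 to 0.569 in wt/wt, a log2 difference of 0.0014 (exact two-sided permutation p = 0.942). The ratio of *Aplp2* to *App* was 0.408 to 0.444 in ki/ki and 0.410 to 0.426 in wt/wt, a log2 difference of 0.0091 (exact two-sided permutation p = 0.608). For each ratio 2 ki/ki mice lay below all wt/wt mice, and both differences were smaller than the spread between mice. These p-values are unadjusted, for 3 ratios compared.

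*Bace1* (ENSMUSG00000032086, chr9:45838580-45864399, plus strand), the beta-secretase that makes the first cut towards amyloid beta, had the largest difference of the 8. Its values in ki/ki were 837, 910 and 938 (lowest, median, highest), and in wt/wt 899, 925 and 987. Of the ki/ki mice, 3 lay below all wt/wt mice, and of the wt/wt mice, 2 lay above all ki/ki mice. The mean was 901.4 ± 33.2 in ki/ki and 931.1 ± 30.4 in wt/wt (SD, n = 8 each), a difference of -3.21% (95% interval -7.13 to 0.882%), which did not pass the test (limma, unadjusted p = 0.121 and adjusted p = 0.890; exact two-sided permutation p = 0.0852). The lowest value, 837, came from ki/ki replicate 8, the library with the lowest estimated depth, and without it the log2 fold change went from -0.047 to -0.032 (limma, unadjusted p = 0.291). The ratio of *Bace1* to *App* was 0.0627 to 0.0690 in ki/ki and 0.0655 to 0.0691 in wt/wt, with 4 ki/ki mice below all wt/wt mice (log2 difference -0.040, exact two-sided permutation p = 0.0816). Leaving out ki/ki replicate 4, 5 or 7 moved this ratio past an unadjusted threshold of 0.05 (log2 difference -0.047, -0.047 and -0.049, exact permutation p = 0.0474, 0.0471 and 0.0317). Leaving out any other mouse did not, and without ki/ki replicate 8 the log2 difference was -0.029 (exact permutation p = 0.159). Exons of *Bace1* overlap 975 bases (15.4% of its exon length) of *Rnf214* on the opposite strand, which had mean values of 577.8 in ki/ki and 580.9 in wt/wt. The libraries were made with a stranded kit, but the strand setting used for counting is not given in the sources used here.

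*Mapt* (ENSMUSG00000018411, chr11:104231390-104332090, plus strand), which encodes tau, was the least variable of the 8. Its values were 5813, 5851 and 5967 (lowest, median, highest) in ki/ki and 5701, 5862.5 and 5929 in wt/wt, with 1 ki/ki mouse above all wt/wt mice and 2 wt/wt mice below all ki/ki mice. The mean was 5863.2 ± 56.3 in ki/ki and 5836 ± 88.1 in wt/wt (SD, n = 8 each), a difference of 0.473% (95% interval -1.64 to 2.63%; limma, adjusted p = 0.975). Its coefficient of variation in ki/ki, 0.960%, was below the 1.34% of counting noise at the estimated depth. *Sncb* (ENSMUSG00000034891, chr13:54758860-54766595, minus strand), which encodes beta-synuclein, varied several times more. Its values were 2883, 3139 and 3301 in ki/ki and 2866, 3074.5 and 3382 in wt/wt, so that every ki/ki mouse lay within the range of the wt/wt mice. The mean was 3143.1 ± 146 in ki/ki and 3092.6 ± 173.7 in wt/wt (SD, n = 8 each), a difference of 1.67% (95% interval -3.32 to 6.93%; limma, adjusted p = 0.963). The coefficient of variation of *Sncb* was 4.65% in ki/ki and 5.62% in wt/wt, against 1.83% and 1.77% from counting.

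*Prnp* (ENSMUSG00000079037, chr2:131909928-131938429, plus strand), which encodes the prion protein, had values of 4628, 4769 and 4913 (lowest, median, highest) in ki/ki and of 4550, 4779.5 and 5021 in wt/wt. Again every ki/ki mouse lay within the wt/wt range. The mean was 4774.8 ± 106.2 in ki/ki and 4764 ± 164.3 in wt/wt (SD, n = 8 each), a difference of 0.256% (95% interval -2.28 to 2.86%; limma, adjusted p = 0.990). *Grn* (ENSMUSG00000034708, chr11:102430315-102437048, plus strand), which encodes progranulin, had the lowest values of the 8, at 379, 416 and 472 in ki/ki and 397, 407.5 and 459 in wt/wt. In ki/ki 1 mouse lay above and 2 lay below all wt/wt mice. The mean was 420.5 ± 30.9 in ki/ki and 416 ± 21.5 in wt/wt (SD, n = 8 each), a difference of 0.956% (95% interval -4.92 to 7.19%; limma, adjusted p = 0.985).

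**Figure D1:**
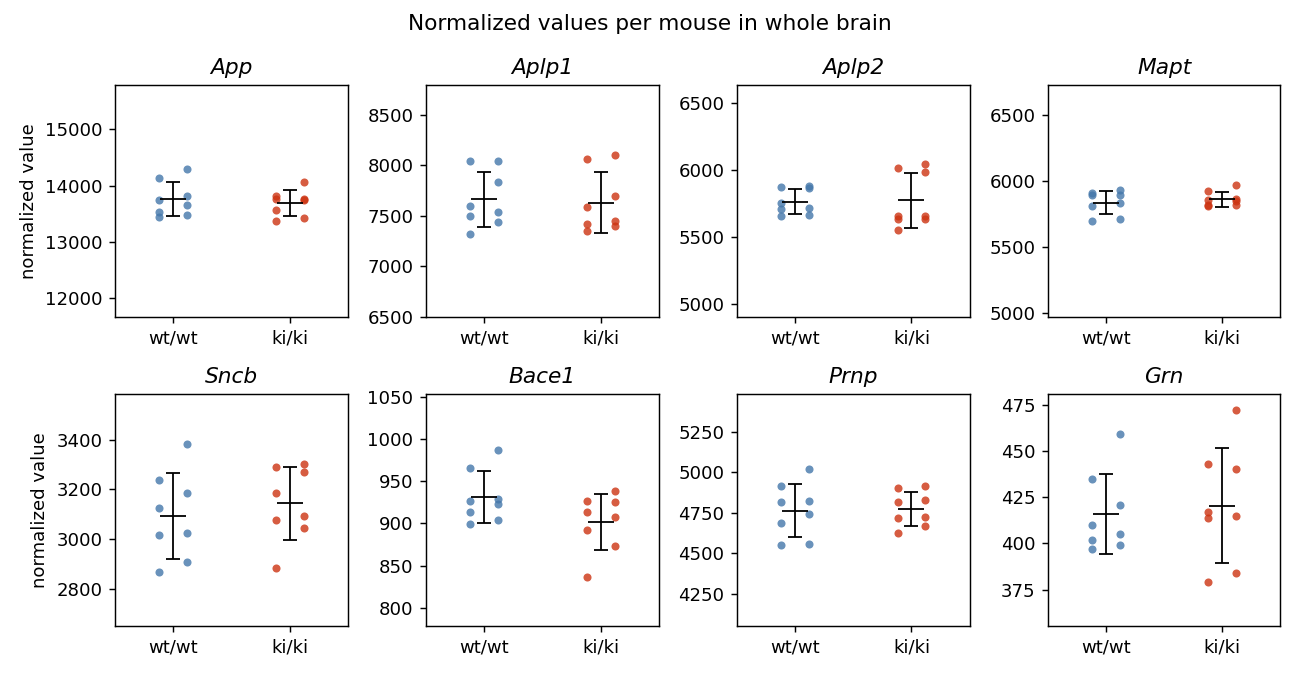
Normalized value (y axis, no unit) of each of the 8 genes in each mouse, by genotype (x axis); points are mice, and the black bars show the mean and SD of 8 mice. The y axes do not start at 0 and span the same relative range around each gene's mean, so that *Mapt* (5701 to 5967) looks tight and *Sncb* (2866 to 3382) wide, and in each panel the genotypes overlap.

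Levels were compared between genes per kilobase of merged exons, since longer transcripts collect more reads. *Aplp1* was the highest on this scale, with a mean of 2534.3 per kb over the 16 mice (range 2426.3 to 2683.8), ahead of *Prnp* at 2035.6 (1942 to 2143), *Sncb* at 1453.6 (1336.1 to 1576.7), *App* at 1056.2 (1028.8 to 1099.6), *Aplp2* at 982.3 (945.4 to 1028.8), *Mapt* at 776.7 (757 to 792.3), *Bace1* at 144.3 (131.9 to 155.5) and *Grn* at 120.4 (109.1 to 135.9). *App*, which has by far the largest value, had a middle level on this scale, because its merged exons add up to 12996 bases. Its longest transcript has 8167 bases and its coding sequence 2310. The lengths of the transcripts present in these brains were not measured, and a shorter length would raise the level of *App* per kb. Its place in the order was 4 by merged exons and also 4 by the longest transcript of each gene. Of neighbours in this order, the ranges of *Bace1* and *Grn* overlapped and those of *App* and *Aplp2* met at 1028.8, while the other neighbours were apart in all mice. With the length of the longest transcript in place of merged exons, *Sncb* (2307.8 per kb) came before *Prnp* (2183.8), and *Grn* (178.7) before *Bace1* (151.2). The order was read over all 16 mice, and the protease *Bace1* was far below its substrates in both genotypes.

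**Figure D2:**
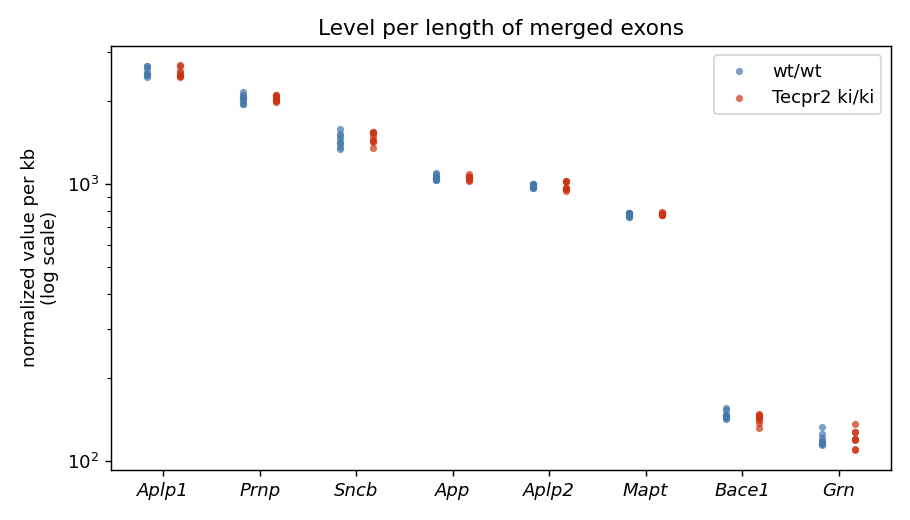
Normalized value per kb of merged exons (y axis, log scale) of each gene (x axis, ordered by mean), with a point for each mouse, coloured by genotype. *Aplp1* stands highest at 2426.3 to 2683.8 per kb and *Grn* lowest at 109.1 to 135.9 per kb, and the points of the genotypes lie side by side.

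Genes that act with these proteins were counted in 6 lists that had been written by hand, of 55 genes in all, of which 53 were tested. In ki/ki 22 of the 53 were higher and 31 lower, with a median log2 fold change of -0.0092 (all tested genes -0.00098). Of the 6896 tested genes with a mean value of at least 300, 2882 were higher and 4014 lower, with a median of -0.0071. Genes with larger values thus leaned lower too, though not all of the 53 reach that limit. By limma with Benjamini-Hochberg adjustment, 0 of 53 had an adjusted p under 0.1, against 0.133% of all tested genes. At an unadjusted p under 0.05 by limma there were 3 higher and 3 lower, where 3.07% and 3.01% of all tested genes were higher and lower at that threshold. Of the 6896 genes with larger values, 177 were higher and 346 lower at it. None of the 6 related genes under that threshold is a call, and their values are given as a description.

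Of the 12 genes of App cleavage, 8 were higher and 4 lower in ki/ki (median log2 fold change 0.013). The list held alpha-secretases, subunits of gamma-secretase, *Bace2* and *Lgmn*, while *Bace1* is described above. *Adam10*, the main alpha-secretase of neurons and the most abundant gene of this list, had a mean of 1274.4 ± 58.1 in ki/ki and 1258.5 ± 45.8 in wt/wt (limma, adjusted p = 0.968). *Aph1c*, a subunit of gamma-secretase, was the only one of this list under an unadjusted p of 0.05, with values of 146 to 185 in ki/ki and 130 to 176 in wt/wt (log2 fold change 0.15, SE 0.065, limma, unadjusted p = 0.0259 and adjusted p = 0.765). *Aph1b* is a near-identical copy of it, so the division of reads between the copies is uncertain.

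Of the 16 genes of App sorting and adaptors, 6 were higher and 10 lower (median -0.011). *Lrp1*, an endocytic receptor that is linked to App through a shared adaptor and the most abundant gene of the list, had a mean of 11161.1 ± 318 in ki/ki and 10918.2 ± 144.4 in wt/wt (log2 fold change 0.031, limma, unadjusted p = 0.0306 and adjusted p = 0.781), with 4 ki/ki mice above all wt/wt mice. *Appbp2*, which binds the App tail, had values of 1428 to 1539 in ki/ki and 1458 to 1602 in wt/wt (log2 fold change -0.050, limma, unadjusted p = 0.0482 and adjusted p = 0.820). Of the 4 proteases that degrade amyloid beta, 2 were higher and 2 lower (median -0.019). *Ide*, the insulin-degrading enzyme and the most abundant of them, was far more variable than any of the 8 genes, from 600 to 1111 in ki/ki (median 814) and from 602 to 1330 in wt/wt (median 843), with a log2 fold change of -0.11 and a 95% interval of -0.60 to 0.39 (limma, adjusted p = 0.975).

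Of the 16 genes of the tau family and its kinases, 4 were higher and 12 lower (median -0.013). *Map2*, the dendritic relative of tau, had values of 16199, 16590.5 and 17245 (lowest, median, highest) in ki/ki and 16818, 16984.5 and 17192 in wt/wt. Of the ki/ki mice, 6 lay below all wt/wt mice and 1 above all of them (log2 fold change -0.028, SE 0.012, limma, unadjusted p = 0.0181 and adjusted p = 0.714). *Mark1*, a kinase that phosphorylates tau and its relatives, had a mean of 934.1 ± 30.8 in ki/ki and 981.4 ± 52 in wt/wt (log2 fold change -0.070, limma, unadjusted p = 0.0258 and adjusted p = 0.765). *Map1b*, a microtubule-associated protein of growing axons and the most abundant of this list, had a mean of 23720.6 ± 308.4 in ki/ki and 23874 ± 343.3 in wt/wt (limma, adjusted p = 0.939). The summed value of the neuronal markers, with 7 of 8 lower and 0 of 8 called, is given above, and its part in these differences was not tested.

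Of the prion family, *Prnd* was too low to test (mean value 0.188), and *Sprn*, which encodes a relative of the prion protein, had a mean of 940 ± 51.9 in ki/ki and 960.9 ± 43.3 in wt/wt (limma, adjusted p = 0.931). Of the 5 genes of the progranulin pathway, 4 were tested and 2 were higher and 2 lower. *Psap*, which encodes prosaposin, a partner of progranulin on the way to the lysosome, had a mean of 11721.6 ± 504.8 in ki/ki and 11477 ± 385.5 in wt/wt (limma, adjusted p = 0.923). *Gpnmb*, a membrane glycoprotein of phagocytes, had low values of 22 to 58 in ki/ki and 13 to 35 in wt/wt, with 1 ki/ki mouse above all wt/wt mice (log2 fold change 0.36, SE 0.17, limma, unadjusted p = 0.0432 and adjusted p = 0.820).

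**Figure D3:**
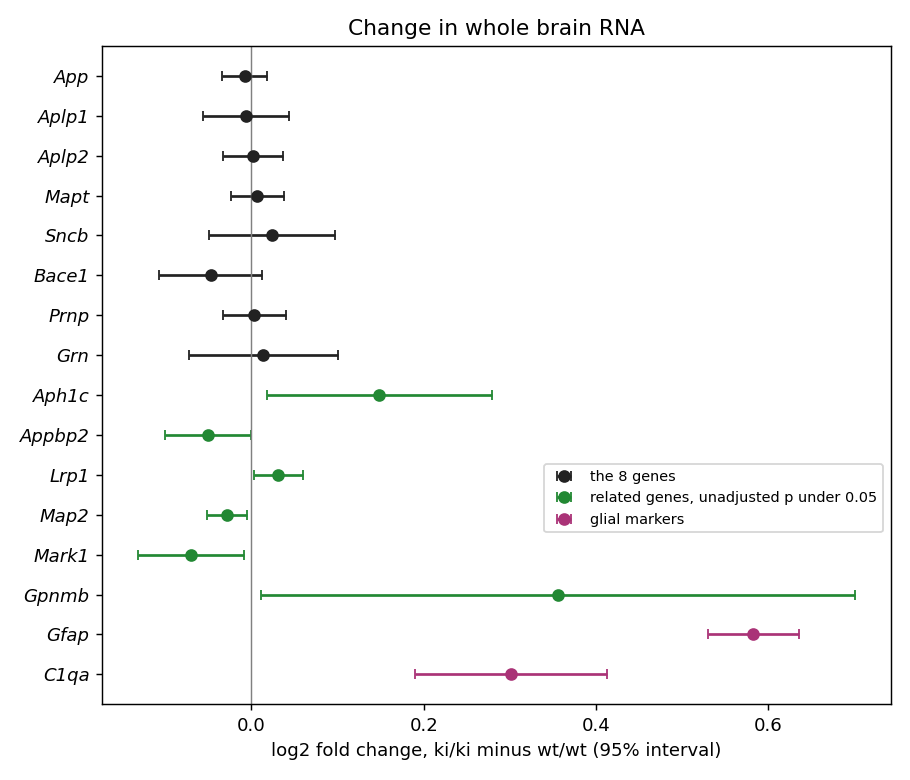
Log2 fold change of ki/ki minus wt/wt (x axis) with its 95% interval from limma, for the 8 genes (black), the 6 related genes at an unadjusted p under 0.05 (green) and the glial markers *Gfap* and *C1qa* (purple). The intervals of all 8 genes include 0, with estimates from -0.047 for *Bace1* to 0.024 for *Sncb*, while *Gfap* and *C1qa* stand at 0.58 and 0.30. Over the whole marker lists the median was 0.047 for 8 astrocyte markers and 0.17 for 10 microglia markers.

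Among the 16 mice, some of the 8 genes varied together. Of the 28 pairs, 6 had a Pearson correlation of log2 values with a permutation p, adjusted by Benjamini-Hochberg over the 28, under 0.05, and 5 of these also a Spearman correlation under that threshold. All points of such a relation share the library, and *App* itself had r = 0.88 with the total value of the library. For *Aplp1* this r was 0.814, for *Prnp* 0.639, for *Sncb* 0.633 and for *Aplp2* 0.561. *App* and *Prnp* had Pearson r = 0.703 (permutation p = 0.00251, adjusted p = 0.0141) and Spearman rho = 0.729 (permutation p = 0.00201, adjusted p = 0.0188), with r = 0.828 within ki/ki and 0.666 within wt/wt. Without the 2 mice farthest from the median of *App* r was 0.701, and with every library rescaled to the same total it was 0.571. *App* and *Sncb* had r = 0.662 (permutation p = 0.00483, adjusted p = 0.0225) and rho = 0.674 (permutation p = 0.00505, adjusted p = 0.0299), with 0.610 within ki/ki, 0.763 within wt/wt, 0.573 without the 2 farthest mice and 0.565 at equal totals. *App* and *Aplp1* had r = 0.772 (permutation p = 0.00056, adjusted p = 0.00588), but rho = 0.594 did not pass the adjustment (permutation p = 0.0170, adjusted p = 0.0792). Here r was 0.589 within ki/ki, 0.945 within wt/wt, 0.655 without the 2 farthest mice and 0.638 at equal totals. Both thresholds were also passed by *Aplp1* and *Aplp2* (r = 0.781, rho = 0.749, r = 0.685 at equal totals). The same held for *Aplp2* and *Sncb* (r = 0.781, rho = 0.676, r = 0.712 at equal totals). *Aplp1* and *Sncb* passed both as well, with r = 0.742, rho = 0.724 and r = 0.686 at equal totals. No p-value was computed at equal totals. *Mapt* and *Bace1* had r = -0.032 (permutation p = 0.906, adjusted p = 0.916) and rho = -0.15 (permutation p = 0.579, adjusted p = 0.772), and *Grn* was in none of the 6 pairs.

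**Figure D4:**
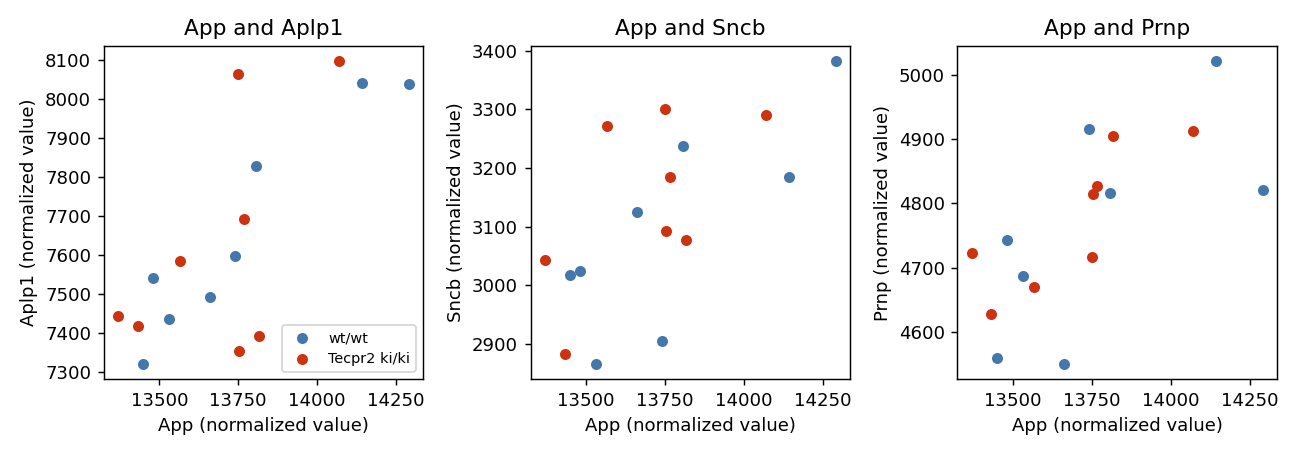
Normalized values of *App* (x axis) against *Aplp1*, *Sncb* and *Prnp* (y axis, a panel each) in each mouse, coloured by genotype. Mice with more *App*, which ran from 13370 to 14291, tended to have more of the other gene. The genotypes were mixed along most of the *App* axis, with 2 ki/ki mice at its low end and 2 wt/wt mice at its high end.

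The genes whose values were most like those of each member over the 16 mice are given as a description, by Pearson r among tested genes with a mean value of at least 100. For *App* they were *Scd2* (0.906) and *Fasn* (0.898), both enzymes of fatty acid metabolism, and *Gm5559* (0.900). For *Aplp1* they were the tubulin *Tubb4a* (0.887), *Rpusd1* (0.880) and the neuronal surface protein *Thy1* (0.879). For *Aplp2* they were the mitochondrial glutamate carrier *Slc25a22* (0.860), *Lbh* (0.844) and the GABA-B receptor subunit *Gabbr1* (0.842). For *Mapt* they were *Clybl* (0.816), the gene ENSMUSG00000118665, which has no symbol here (0.807), and *Mvb12b* (0.803). For *Sncb* they were *Fmn2* (0.829), *Nacc2* (0.818) and *Nacc1* (0.813), and for *Bace1* they were *Snd1* (0.847), *S1pr5* (0.833) and *Fam76a* (0.809). For *Prnp* they were the ribosomal protein gene *Rps4x* (0.901), *Timm50* (0.865) and *Ywhae* (0.863), and for *Grn* the peroxisomal oxidase gene *Acox3* (0.792), *2900011O08Rik* (0.767) and *Vsig2* (0.760). No gene was among the 3 most like more than 1 member. Of these 24, 13 were still among the 3 most like after the genotype means had been subtracted, and 6 when ranked by Spearman rho.

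*Grn* was set beside the microglia markers because microglia are a source of progranulin. This was done after the marker values had been seen to differ between the genotypes, so the values are given as a description, with no test. The mean log2 value of the markers was 7.74 to 7.81 in ki/ki and 7.47 to 7.67 in wt/wt, without overlap, a difference of 0.20. The complement gene *C1qa*, a member of that list, had values of 212 to 258 in ki/ki and 176 to 210 in wt/wt (log2 fold change 0.30, limma with Benjamini-Hochberg adjustment, adjusted p = 0.00219). The markers did not move alike: their log2 fold changes ran from -0.0058 to 0.48, and 6 of the 10 were not called. Their mean therefore does not stand for every marker. The log2 value of *Grn* minus the mean of the markers was 0.80 to 1.10 in ki/ki and 0.97 to 1.30 in wt/wt, with 5 ki/ki mice below all wt/wt mice. The mean was 0.94 in ki/ki and 1.13 in wt/wt, which follows from a *Grn* difference of 0.014 and a marker difference of 0.20. A ratio shows unequal change and not which side changed, and the share of *Grn* RNA that came from microglia was not tested.

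**Figure D5:**
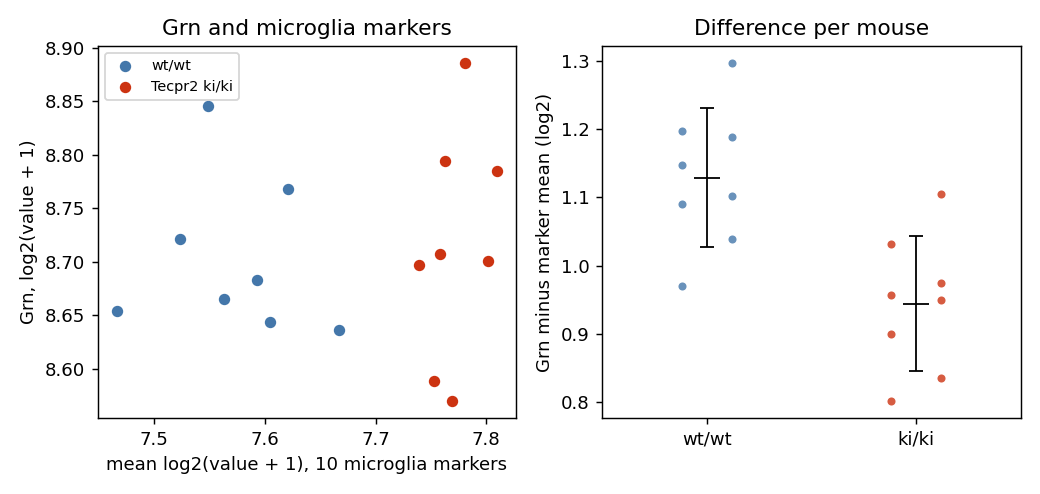
Left, log2(value + 1) of *Grn* (y axis) against the mean log2(value + 1) of 10 microglia markers (x axis) in each mouse; right, the difference of these in each mouse, with the mean and SD of 8 mice in black. The genotypes are apart along the marker axis (7.74 to 7.81 in ki/ki, 7.47 to 7.67 in wt/wt) and mixed along the *Grn* axis, and 5 ki/ki mice have a difference below all wt/wt mice.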

How the data were processed

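Whole brain total RNA of 16 mice was depleted of ribosomal RNA and sequenced by the authors as stranded libraries. Per the submitters' processing notes and the methods, reads were trimmed (Trim Galore 0.6.10, cutadapt 3.4), aligned to GRCm39 (STAR 2.7.10b), counted per gene and tested with DESeq2 1.40.2. Each deposited value was treated as a score, since the authors give normalized expression on a linear scale in whole numbers and the kind of normalization is not given in the sources used here. The tables of single mice held the same values as the table of all mice (16 of 16). Groups were taken from the labels. Nothing in the labels says that mice were littermates or names a batch. The paper introduces wt/wt mice as littermates of ki/ki mice, without giving litters for the sequenced mice.

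Depth per library was inferred from gaps and doublings that scaling leaves among low whole numbers (largest error of the factor 0.0016 in 4 simulated libraries), and intervals cover the spread between these mice. No pair of mice, of 120, differed by less than counting noise. Symbols (52017 genes) and gene models were those of GENCODE for GRCm38. Genes were tested when values summed to over 16 and 4 or more mice of a genotype had a value over 5. limma 3.58.1 in R 4.3.3 was fitted to log2(value + 1) with genotype as the only term (eBayes with trend and robust, Benjamini-Hochberg over all tested genes, threshold 0.1). Fold changes are on that scale. On simulated data for this comparison, over 23233 genes, 200 of 200 genes changed by 0.5 on the log2 scale were recovered and 13 of 23033 unchanged genes were called. Exact two-sided permutation tests used all 12870 splits of the mice (smallest possible p 0.000155), and correlations 100000 resamples. Python 3.11.15 with numpy 2.4.6, scipy 1.17.1, pandas 2.3.3, Biopython 1.88 and matplotlib 3.10.9 was used.

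The members and lists were chosen with earlier results of these data known. Named were *Tecpr2*, the 8 members, and related genes at an unadjusted p under 0.05 or with the highest mean of their list. The 3 genes most like each member, *Gfap* and *C1qa* were named too. *Gfap* and *C1qa* were planned only where a marker list moved with a member, and are shown though no member was called. *Rbfox3*, *Slc1a2*, *Aph1b*, *Prnd* and genes that overlap a member were added later, with their values known. A short list of related genes is not reported here. Alternatives were other added constants (0.1, 8), filters, scalings, limma settings, a replicate block and leaving out each mouse.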

Additional observations from a re-analysis of the deposited data

How the results depend on the processing

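Under 10 alternatives other than leaving out a mouse, the 80 estimates for the 8 genes kept their direction and 0 passed the adjusted threshold. Other filters, other limma settings and the replicate block leave these fold changes as they were, so direction could not move there. Only the added constants and the scalings could have changed a direction. The lowest adjusted p of any of the 8 genes under any alternative was 0.829. The number of genes called at an adjusted p under 0.1 was 31, and 20 with no filter on low values, where more genes were tested, and 16 without trend and robust. Related genes at an unadjusted p under 0.05 went from 3 higher and 3 lower to 1 and 1 without robust and to 1 and 0 without trend and robust, and the cause was not tested. With the replicate number as a block the counts were 46 and 419 at unadjusted p under 0.01 (362 without), 0 of the 8 genes were called, and 4 related genes were higher and 3 lower. The numbers were not taken as pairing, since same-numbered mice correlated at -0.050 to 0.15 and 2 of 8 correlated best with their own number.

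Leaving out each mouse in turn gave 25 to 40 calls at the adjusted threshold and 318 to 389 at unadjusted p under 0.01, 0 calls among the 8 genes, and 1 to 3 related genes higher and 1 to 4 lower. There was 1 higher without ki/ki replicate 1, ki/ki replicate 4 or wt/wt replicate 7, and 1 lower without ki/ki replicate 5, wt/wt replicate 3 or wt/wt replicate 6. The log2 fold changes ranged from -0.013 to 0.00035 for *App*, -0.018 to 0.0040 for *Aplp1*, -0.0078 to 0.0096 for *Aplp2*, 0.0020 to 0.010 for *Mapt*, 0.0086 to 0.043 for *Sncb*, -0.055 to -0.032 for *Bace1*, -0.0057 to 0.015 for *Prnp* and -0.011 to 0.035 for *Grn*. The sign changed in 17 of these 128 estimates, none of them past a threshold. The log2 ratio differences ranged from -0.0092 to 0.0099 for *Aplp1* to *App*, -0.0014 to 0.016 for *Aplp2* to *App*, -0.049 to -0.029 for *Bace1* to *App* and -0.21 to -0.16 for *Grn* to the microglia markers. Depth limits *Grn* and *Bace1* most, whose counting noise alone gives coefficients of variation of 5.00% and 3.41% in ki/ki.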
